A study of Mus musculus with 2 samples.

Results

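A set of 38 genes of peroxisomal lipid oxidation and biogenesis was followed in mouse liver, out of 20660 named genes with a probe on the arrays. The members were taken from a list of gene names: transporters and enzymes of the peroxisome, thioesterases that act on the same acyl-CoA pool, the pantetheinase Vnn1, and the peroxins that build the organelle. CREBH-Tg mice, whose transgene is human cDNA for active-form CREBH, a transcription factor, with expression mainly in liver, were set against wild-type (WT) mice. Both had the C57B6J background and had eaten the HFHS diet for 12 weeks, so no group on another diet was part of the comparison. Each genotype was 1 pooled liver RNA sample on 1 one-colour Agilent array, and how many mice were pooled, of which age and sex, is not stated in the labels. Since each genotype has 1 array, no difference could be tested against the spread between animals, and every difference below is a description of these arrays.

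Peroxisomes shorten fatty acids that mitochondria handle poorly, such as very-long-chain, branched and dicarboxylic acids, and the shortened acyl chains leave as carnitine esters or as free acids. Oxidases of the organelle pass electrons to oxygen and make hydrogen peroxide, which catalase breaks down. Many of these genes are classic targets of the nuclear receptor PPAR alpha in rodent liver, and CREBH is known as a liver transcription factor of lipid metabolism that acts together with PPAR alpha on Fgf21.

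The measured peroxisomal genes were close to equal in CREBH-Tg and WT liver, as most genes on these arrays were. Of the 38 members, 37 could be measured, their signal being well above background in CREBH-Tg and in WT, and 33 of those belonged to the brightest of 3 equally large signal classes, 3 to the middle one and 1, Abcd2, to the dimmest. Among the 37 measured members the median log2 ratio (CREBH-Tg minus WT) was 0.0037, against 0.027 over all 13881 measured genes. None was 1.5-fold higher, where 2.33% of all genes and 1.12% of the genes in the brightest class were. None was 1.5-fold lower, where 2.23% of all genes and 0.692% of the brightest class were. The same holds for 2-fold (0.663% of all genes higher and 0.67% lower) and for 3-fold (0.216% higher and 0.187% lower). Log2 ratios of the 37 ran from -0.39 for Acot3 to 0.47 for Vnn1. Of the 37, 35 lay within 1.3-fold of equal, as did 88.6% of all genes. In the brightest class this held for 31 of 33 members (93.9%) and for 94.4% of all genes, a near-equal share. The remaining member, Hao2, was well above background in WT liver and not in CREBH-Tg liver. In whole liver, fewer cells of a type and less RNA per cell cannot be told apart.

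The error of a single value came from 276 probes that were spotted at least 5 times. The 95% range of their single-spot log2 ratios was 0.0945 for bright genes, 0.17 for the middle class and 0.40 for dim genes, and it leaves out animals, pools, labelling and hybridisation. By this measure 9 of 37 members were higher in CREBH-Tg liver, against 21% of all genes and 36.1% of the brightest class. Another 10 were lower, against 13.2% of all genes and 15.5% of the brightest class. All of these calls lay among the 33 members of the brightest class, of which 27.3% were higher and 30.3% lower. The split depended on the scaling: with each array scaled to its median in place of its 75th percentile, 17 members were higher and 3 lower. That scaling added the same amount to every gene. The median log2 ratio became 0.12 over all genes and 0.14 over the brightest class. Shares of all genes beyond spot noise under that scaling are not given here, so the 17 and 3 have no background beside them. The scanner software's own error of the processed signals, an estimate added after the data were seen, is wider, with a 95% range near 0.40 for a bright gene with 1 spot. Vnn1 alone was higher beyond it (4.69% of all genes and 3.89% of the brightest class were) and no member was lower (3.65% of all genes and 1.58% of the brightest class were).

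**Figure D1:**
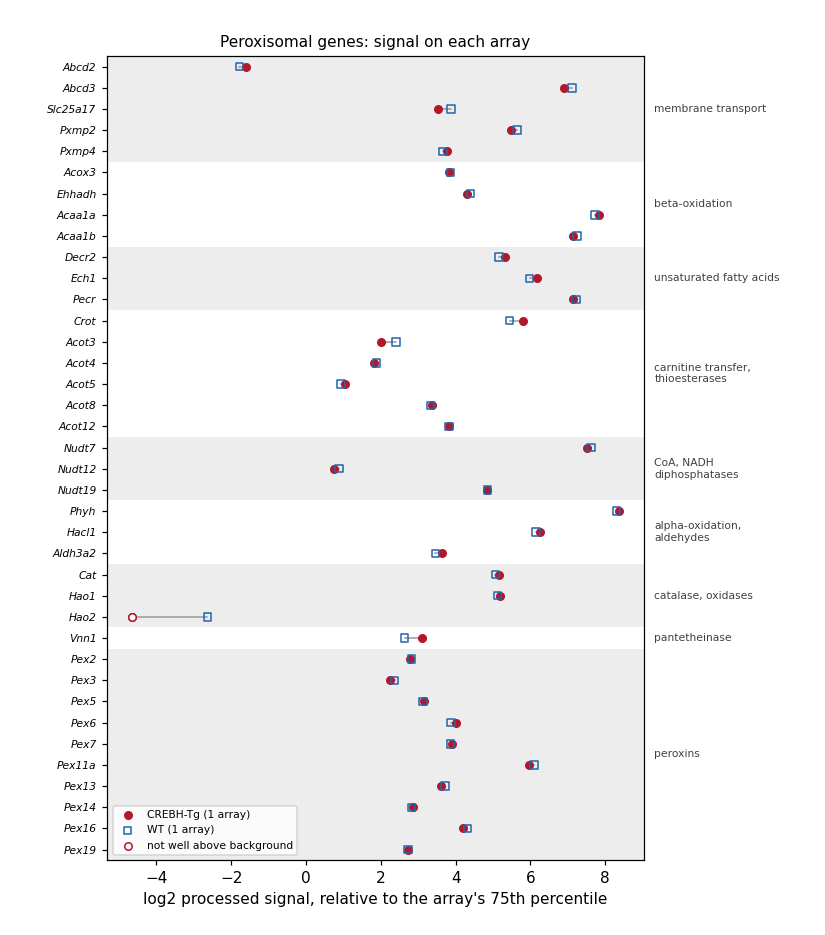
Log2 processed signal of the 38 peroxisomal genes relative to the 75th percentile of each array, CREBH-Tg as filled circles and WT as open squares, 1 array each, grouped by role. The marks of most genes nearly coincide, and Hao2 stands apart, with its open circle not well above background in CREBH-Tg. Probes differ in brightness, so positions of different genes along the axis are not compared.

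**Figure D2:**
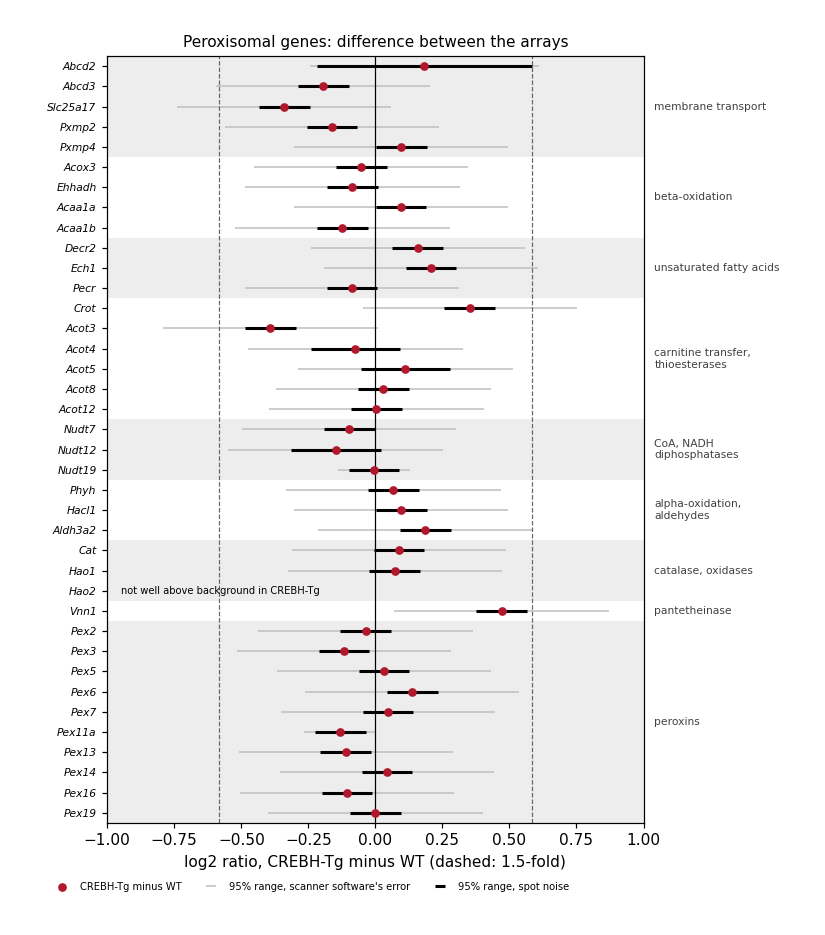
Log2 ratio of each measured member, CREBH-Tg minus WT, with the 95% range of spot noise as a black bar and that of the scanner software's error as a grey bar. Dashed lines mark 1.5-fold, and all 37 points lie between them, from -0.39 for Acot3 to 0.47 for Vnn1.

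Promoter sequence was read beside these values for 32 of the 38 genes, from RefSeq windows of 250 bases before to 50 bases after a gene's start on GRCm38.p6. CREB-type factors are known to bind the cAMP response element TGACGTCA, searched here on both strands. This full element stood in 1 of 39 windows of the members (2.56%), that of Pex13, and in 1.79% of all 32851 windows. Its core TGACG, which the full element contains, stood in 10 of 39 member windows (25.6%) and in 20.8% of all windows. PPAR alpha is known to bind a direct repeat of AGGTCA with 1 base of any kind between the units. Searched on both strands with up to 2 mismatches within the units, it stood in 3 member windows (7.69%), those of Acot4, Acot12 and Cat, and in 3.86% of all windows. The single unit AGGTCA, part of that repeat, stood in 8 member windows (20.5%) against 16.3% of all. The CCAAT box, CCAAT on either strand, stood in 20 member windows (51.3%) against 37.4% of all. Some genes have more than 1 window, and windows of a gene can overlap. Counted by gene, the unit AGGTCA stood in 6 of 32 members (18.8%) and in 18.1% of all genes. The other shares by gene were 3.12% against 2.03% for the full element and 28.1% against 23% for its core. They were 9.38% against 4.4% for the repeat and 53.1% against 41.1% for the CCAAT box. These matches describe letters within the windows only. The windows printed below are those with the full element or the repeat, and those of Crot, Slc25a17 and Acot3. Crot, Slc25a17 and Acot3 were farthest from equal among the members that were measured on both arrays and have an entry.

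Of the genes for transport across the peroxisomal membrane, Abcd3, Pxmp2 and Slc25a17 were lower in CREBH-Tg liver by more than spot noise, by small amounts. In the brightest class, to which these belong, 15.5% of genes were lower by more than spot noise. Slc25a17, a carrier known to exchange CoA, FAD and NAD across the membrane, had a scaled signal of 11.6 in CREBH-Tg and 14.7 in WT liver, in multiples of each array's 75th percentile of processed signal. This was 1.27-fold lower (log2 ratio -0.34), and the log2 ratio lay between -0.40 and -0.25 over 10 processing settings. Abcd3, an ATP-driven transporter of branched and long acyl-CoA, had a scaled signal of 120.3 in CREBH-Tg and 137.6 in WT (log2 ratio -0.19). The channel protein Pxmp2 had 44.6 in CREBH-Tg and 49.9 in WT (log2 ratio -0.16). Under the 6 other scalings and background corrections Abcd3 ran from -0.28 to -0.11 and Pxmp2 from -0.25 to -0.072. Abcd2, a transporter related to Abcd3, was dim at 0.330 in CREBH-Tg and 0.291 in WT, and its log2 ratio of 0.18 was inside the spot noise of 0.40. Pxmp4, a membrane protein of less clear function, had 13.5 in CREBH-Tg and 12.6 in WT, at a log2 ratio of 0.096 just past the spot noise of 0.0945. The Slc25a17 window (chr15:81360716-81361015, minus strand) is shown with its CCAAT box in capitals:
Slc25a17: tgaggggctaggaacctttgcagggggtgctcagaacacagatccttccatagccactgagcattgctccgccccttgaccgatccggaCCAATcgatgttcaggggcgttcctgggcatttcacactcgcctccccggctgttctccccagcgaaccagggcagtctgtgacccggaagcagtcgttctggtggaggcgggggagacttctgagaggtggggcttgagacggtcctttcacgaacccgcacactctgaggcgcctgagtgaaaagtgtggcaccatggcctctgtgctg

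The 4 enzymes of the beta-oxidation spiral itself had log2 ratios between -0.12 and 0.095. Ehhadh, the bifunctional enzyme for straight-chain acyl-CoA, had a scaled signal of 19.9 in CREBH-Tg and 21.1 in WT, a log2 ratio of -0.086 that was inside spot noise. The branched-chain oxidase Acox3 had 14.03 in CREBH-Tg and 14.56 in WT by its brighter probe, and its probes gave log2 ratios of -0.053 and -0.027. Of the thiolases, which release acetyl-CoA in the last step, Acaa1a had 226 in CREBH-Tg and 212 in WT (log2 ratio 0.095). Acaa1b had 139.5 in CREBH-Tg and 151.9 in WT (log2 ratio -0.12). Both ratios passed the spot noise of 0.0945, that of Acaa1a barely. Neither call held in every setting, with Acaa1a at -0.013 under quantile normalization and Acaa1b at -0.034 with median scaling. The thiolase genes are close paralogs whose probes may share signal, so their separate values are uncertain.

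Auxiliary enzymes for unsaturated fatty acids were a little higher in CREBH-Tg liver for 2 of 3 genes. All 3 lay in the brightest class, where 36.1% of genes were higher beyond spot noise and 66.1% lay above 0. Ech1, a dienoyl-CoA isomerase, had 72.7 in CREBH-Tg and 63.0 in WT, which was 1.15-fold higher (log2 ratio 0.21). Decr2, the peroxisomal dienoyl-CoA reductase, had 40.0 in CREBH-Tg and 35.9 in WT (log2 ratio 0.16). Pecr, a trans-enoyl-CoA reductase, had 140.5 in CREBH-Tg and 149.3 in WT, and its log2 ratio of -0.088 was inside spot noise. Over the settings Ech1 ran from 0.11 to 0.30, and Decr2 from 0.065 to 0.25.

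Genes that release acyl chains from the peroxisome went both ways. Crot, the carnitine octanoyltransferase that makes medium-chain carnitine esters for export, had a scaled signal of 55.6 in CREBH-Tg and 43.6 in WT. It was 1.28-fold higher (log2 ratio 0.35, between 0.25 and 0.44 over the settings). Acot3, a thioesterase for long-chain acyl-CoA, had the lowest log2 ratio of the measured members, with a scaled signal of 4.04 in CREBH-Tg and 5.30 in WT. This was 1.31-fold lower (log2 ratio -0.39), its second, dimmer probe gave -0.17, and over the settings it ran from -0.45 to -0.28. Acot4, which acts on dicarboxylic acyl-CoA, had 3.51 in CREBH-Tg and 3.69 in WT (log2 ratio -0.075). The medium-chain enzyme Acot5 had 2.06 in CREBH-Tg and 1.90 in WT (log2 ratio 0.11). Both lay inside the spot noise of 0.17 for the middle class. Acot8, a thioesterase of broad specificity, was at a log2 ratio of 0.030, with 10.29 in CREBH-Tg and 10.08 in WT. Acot12, an acetyl-CoA thioesterase known mainly from the cytosol, was at 0.0037, with 14.1 in both. Acot3, Acot4 and Acot5 are neighbouring, similar genes on chromosome 12, and possible cross-hybridisation between their probes leaves the separate values uncertain. The windows of Crot (chr5:8997097-8997396, minus strand) and Acot3 (chr12:84051894-84052193, plus strand) hold a CCAAT box in capitals, and that of Acot3 a second one on the other strand, read as ATTGG:
Crot: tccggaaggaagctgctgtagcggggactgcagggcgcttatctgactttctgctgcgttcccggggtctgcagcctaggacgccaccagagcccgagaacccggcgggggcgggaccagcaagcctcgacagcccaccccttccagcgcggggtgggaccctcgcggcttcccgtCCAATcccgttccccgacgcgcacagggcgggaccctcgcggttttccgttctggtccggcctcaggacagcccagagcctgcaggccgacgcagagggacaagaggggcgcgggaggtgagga
Acot3: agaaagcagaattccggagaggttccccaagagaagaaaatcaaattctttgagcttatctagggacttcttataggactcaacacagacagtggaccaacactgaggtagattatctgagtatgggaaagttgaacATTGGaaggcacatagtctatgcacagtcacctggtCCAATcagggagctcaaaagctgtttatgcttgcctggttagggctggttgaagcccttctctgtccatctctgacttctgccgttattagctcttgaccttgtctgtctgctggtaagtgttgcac
The windows of Acot4 (chr12:84038129-84038428, plus strand) and Acot12 (chr13:91741271-91741570, plus strand) hold a match to the direct repeat on the other strand, in capitals, which begins 13 and 110 bases before the start, with 2 mismatches and 1 mismatch. Neither gene differed beyond spot noise:
Acot4: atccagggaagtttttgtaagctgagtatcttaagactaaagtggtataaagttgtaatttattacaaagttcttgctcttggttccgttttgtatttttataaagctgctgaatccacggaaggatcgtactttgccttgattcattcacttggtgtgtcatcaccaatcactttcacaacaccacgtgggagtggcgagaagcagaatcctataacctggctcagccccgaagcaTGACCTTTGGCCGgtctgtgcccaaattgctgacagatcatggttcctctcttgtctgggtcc
Acot12: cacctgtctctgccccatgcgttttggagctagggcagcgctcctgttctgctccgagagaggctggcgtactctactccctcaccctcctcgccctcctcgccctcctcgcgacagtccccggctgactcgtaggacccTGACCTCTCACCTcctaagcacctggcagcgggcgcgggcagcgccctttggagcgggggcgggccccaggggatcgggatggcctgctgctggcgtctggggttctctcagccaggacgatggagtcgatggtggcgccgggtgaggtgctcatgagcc

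The hydrolases that clear CoA and NADH were slightly lower or equal. Nudt7, a CoA diphosphatase of the liver peroxisome, had 183.9 in CREBH-Tg and 196.8 in WT (log2 ratio -0.098), and its second probe gave -0.21. The first value was just past the spot noise of 0.0945, and with median scaling it was -0.0086, inside it. Nudt12, which acts on NADH and related nucleotides, had 1.67 in CREBH-Tg and 1.85 in WT (log2 ratio -0.15), inside the spot noise of its class. Nudt19, a CoA diphosphatase best known from mouse kidney, had 9 usable spots. Their scaled signals ran from 27.8 to 29.8 with a median of 28.7 in CREBH-Tg, and from 27.3 to 29.9 with a median of 29.0 in WT. The spots of both arrays overlapped, and the mean log2 ratio was -0.0053 ± 0.041 (SD over 9 spots of 1 array pair).

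The alpha-oxidation genes, which remove a carbon from phytanic and 2-hydroxy acids, lay slightly above equal in all 3 cases. Aldh3a2, which oxidises the fatty aldehydes that result, had 12.52 in CREBH-Tg and 11.01 in WT, 1.14-fold higher (log2 ratio 0.19). Phyh, phytanoyl-CoA hydroxylase, had 331 in CREBH-Tg and 316 in WT (log2 ratio 0.067), inside spot noise. Hacl1, the lyase of the pathway, had 76.0 in CREBH-Tg and 71.1 in WT (log2 ratio 0.096), just past it. In the brightest class 66.1% of all genes lay above 0. Over the settings Aldh3a2 ran from 0.13 to 0.28, Hacl1 from 0.0079 to 0.19 and Phyh from -0.047 to 0.16, so the spot-noise call of Hacl1 ended and the sign of Phyh turned in some of them.

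Catalase and the glycolate oxidase Hao1 were near equal, whereas Hao2 was at the edge of detection in CREBH-Tg liver. Cat had 35.5 in CREBH-Tg and 33.4 in WT by its brighter probe (log2 ratio 0.088), and its second probe gave -0.084. Hao1, the liver enzyme that turns glycolate into glyoxylate, had 36.6 in CREBH-Tg and 34.8 in WT (log2 ratio 0.072). The Cat window (chr2:103485104-103485403, minus strand) holds a match to the direct repeat, in capitals, which begins 204 bases before the start and has 2 mismatches:
Cat: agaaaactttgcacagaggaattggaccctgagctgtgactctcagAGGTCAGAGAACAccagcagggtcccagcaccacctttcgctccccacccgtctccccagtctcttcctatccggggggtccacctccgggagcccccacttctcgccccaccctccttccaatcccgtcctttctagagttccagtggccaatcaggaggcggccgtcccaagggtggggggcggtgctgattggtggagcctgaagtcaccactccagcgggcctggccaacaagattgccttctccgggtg

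Hao2, an oxidase of long-chain 2-hydroxy acids, was dim on both arrays, and its probe was spotted 10 times. Over the 7 spots not marked as outliers on either array, the processed intensity ran from 7.65 to 16.8 with a median of 12.5 in CREBH-Tg, and from 46.4 to 60.1 with a median of 54.2 in WT. No spot was well above background in CREBH-Tg and all 7 were in WT, and the spots did not overlap. Over all 10 spots the ranges were 7.65 to 20.5 in CREBH-Tg, with 2 spots well above background, and 43.1 to 60.1 in WT, with 10. The negative control spots had 95th percentiles of 3.53 in CREBH-Tg and 5.20 in WT. The highest of them reached 48.6 in CREBH-Tg and 88.0 in WT, above every Hao2 spot of the same array. Over the 7 usable spots the measured means were -4.67 in CREBH-Tg and -2.64 in WT on the scaled log2 scale. Hao2 was lower in CREBH-Tg by a nominal bound of 3.76-fold, which is not a least value. The 3 spots left out, among them the 2 well above background in CREBH-Tg, did not enter it. That bound takes -4.55, the dimmest probe on the CREBH-Tg array that was well above background, in place of the measured mean, and is no strict detection limit. Of 14888 genes well above background on either array, 5.12% were so in CREBH-Tg alone and 1.65% in WT alone, and 42 of those 245 genes had a bound at least as large. With a normexp background correction and offset of 50 on the median spot signal, which shrinks differences of dim probes by construction, its log2 ratio was -0.48. Hao2 is also a kidney gene in rodents. Of 6 kidney tubule markers, 4 were measured, and their scaled signals summed to 1.11 in CREBH-Tg and 1.21 in WT. Slc5a2, the renal glucose transporter SGLT2, was dim and had a log2 ratio of -1.34, while the other 3 were between -0.057 and 0.42. Slc5a2 ran from -1.40 to -0.41 over the settings and Lrp2, the highest of the 4, from 0.10 to 0.52, and Umod and Kap were not measured on both arrays. Their part in the Hao2 value was not tested.

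**Figure D3:**
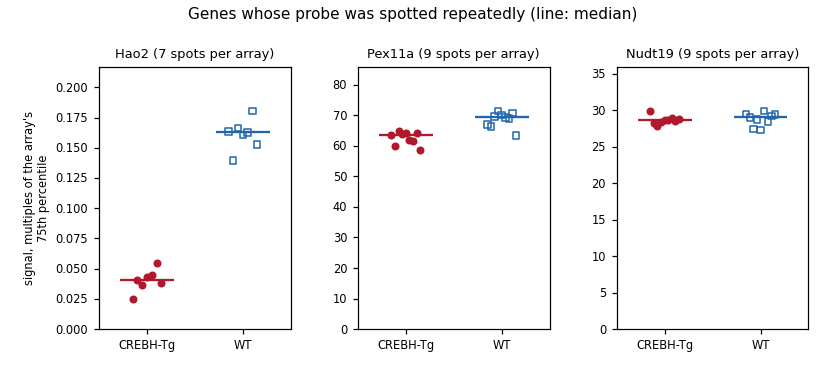
Scaled signal of single spots for the 3 members whose probe was spotted repeatedly, in multiples of the 75th percentile of each array, with CREBH-Tg left and WT right and a line at the median. The 7 Hao2 spots of each array do not overlap, those of Pex11a overlap slightly, and those of Nudt19 overlap throughout.

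Vnn1 had the highest log2 ratio of the members. It encodes vanin-1, a membrane-anchored pantetheinase that returns pantothenate from CoA breakdown, and is a known PPAR alpha target in mouse liver. Its scaled signal was 8.62 in CREBH-Tg and 6.22 in WT, which was 1.39-fold higher (log2 ratio 0.47, between 0.38 and 0.56 over the settings). Among all genes 6.09% were at least 1.3-fold higher, and in the brightest class, where Vnn1 lies, 3.85% were. Acot3 was the single measured member at least 1.3-fold lower, where 5.3% of all genes and 1.79% of the brightest class were. Neither call held in every setting. Acot3 was inside 1.3-fold with median scaling (-0.30), normexp (-0.35) and the mean over probes (-0.28), and Vnn1 with normexp (0.375). Slc25a17 was past 1.3-fold lower with loess (-0.39) and in the authors' table (-0.40), and Crot past 1.3-fold higher with median scaling (0.44) and normexp (0.39).

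The 10 peroxins had a median log2 ratio of -0.018 and a range of -0.13 to 0.14, with 1 of 10 higher and 4 of 10 lower beyond spot noise, against 36.1% and 15.5% of the brightest class. Scaled to each array's median, which moved the median of the brightest class from 0.051 to 0.14, 4 peroxins were higher and 0 lower. That class median is itself past the spot noise of 0.0945. Shares of all genes under that scaling are not given here, so the 4 and 0 have no background beside them. Pex11a, a membrane protein that drives peroxisome elongation and division, had 9 usable spots. Its scaled signals ran from 58.6 to 64.7 with a median of 63.6 in CREBH-Tg, and from 63.4 to 71.4 with a median of 69.3 in WT. The spots overlapped slightly, each of the 9 was lower in CREBH-Tg than at its own position on the WT array, and the mean log2 ratio was -0.13 ± 0.029 (SD over 9 spots of 1 array pair). Pex6, an ATPase that recycles the import receptor, was the highest, with 16.1 in CREBH-Tg and 14.7 in WT (log2 ratio 0.14), and its dimmer probe gave 0.015. The import receptors for matrix proteins were inside spot noise, Pex5 with 8.93 in CREBH-Tg and 8.73 in WT and Pex7 with 15.1 in CREBH-Tg and 14.6 in WT. So was the receptor for membrane proteins, Pex19, at 6.58 in both, while its docking partner Pex3 had 4.76 in CREBH-Tg and 5.16 in WT (log2 ratio -0.12). Pex16, which also takes part in membrane assembly, had 18.5 in CREBH-Tg and 19.9 in WT (log2 ratio -0.11). At the import pore, the docking protein Pex14 had 7.26 in CREBH-Tg and 7.04 in WT (log2 ratio 0.044) and the RING-finger protein Pex2 had 6.90 in CREBH-Tg and 7.08 in WT (log2 ratio -0.036). Pex13, the other docking protein, had 12.1 in CREBH-Tg and 13.1 in WT by its brighter probe (log2 ratio -0.11). Its second probe was dim and gave 0.35, and the mean over both was 0.12, so its direction depended on the probe. The Pex13 window (chr11:23665834-23666133, minus strand) is shown with the full cAMP response element in capitals, 83 bases before the start:
Pex13: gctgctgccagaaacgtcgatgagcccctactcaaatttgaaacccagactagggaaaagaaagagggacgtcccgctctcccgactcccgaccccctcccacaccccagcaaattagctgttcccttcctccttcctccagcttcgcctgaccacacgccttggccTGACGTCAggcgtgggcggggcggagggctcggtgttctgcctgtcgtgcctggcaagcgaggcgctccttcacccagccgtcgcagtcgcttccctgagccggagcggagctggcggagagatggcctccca

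**Figure D4:**
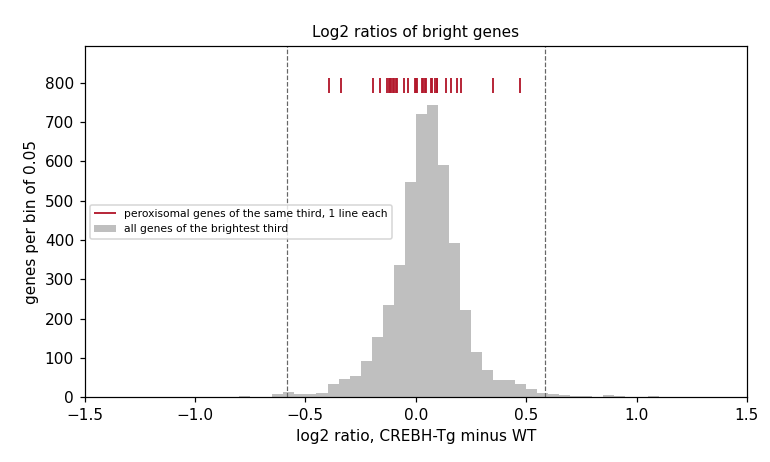
Histogram of log2 ratios (CREBH-Tg minus WT) of the 4627 genes in the brightest class, in grey, with the 33 peroxisomal genes of that class as red lines above it and dashed lines at 1.5-fold. The lines fall on both sides of 0, 17 above and 16 below, and none passes 1.5-fold. The 12 genes beyond 1.5 on the log2 scale are not drawn.

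Within the brightest class, 17 of 33 members (51.5%) lay above 0, against 66.1% of all its genes, whose median was 0.051. The SD of log2 ratios was 0.17 over these 33 members and 0.21 over the whole class. Of the 8 members with more than 1 measured probe, all probes lay on the same side of 0 for 5, and Acot5, Cat and Pex13 went both ways.

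A second list of 56 peroxisomal genes outside the members, of which 51 were measured, held none that was 1.5-fold apart. Of all genes 2.33% were higher and 2.23% lower. In the brightest class, which held 39 of the 51, 1.12% were higher and 0.692% lower. The list, like the members, was drawn up with earlier results of these data known, so its count is no independent support. Its median log2 ratio was -0.050. With no filter on dim probes 2 of its genes not measured otherwise, Acsl6 and Dao, were past 1.5-fold higher. Its extremes, named after their values were seen, were Acot6, a thioesterase gene, at -0.39 and Crat, carnitine acetyltransferase, at 0.38, both dim and inside the spot noise of 0.40, and Acot6 ran from -0.45 to 0.095 over the settings. PPAR alpha targets outside the peroxisome were listed beside them, and 5 of 41 were at least 1.5-fold higher, against 2.33% of all genes, and 1 was lower, against 2.23%, at a median of 0.10. Of the 41, 27 lay in the brightest class, where 1.12% of genes were higher and 0.692% lower. This list was drawn up with earlier results of these data known, so its counts cannot show an excess over all genes. Between 2 and 5 of its genes were higher and 1 or 2 lower over the settings, as Cyp4a31, Cyp4a10 and G0s2 each dropped under 1.5-fold in some of them. The 5 higher genes were the lipid droplet protein Cidec with 14.1 in CREBH-Tg and 2.26 in WT, the hormone Fgf21 with 8.26 in CREBH-Tg and 1.63 in WT, and, by smaller amounts, Cyp4a31, G0s2 and Cyp4a10. Cyp4a31 and Cyp4a10, omega-hydroxylases that make dicarboxylic acids, had log2 ratios of 0.65 and 0.63, and their similar sequences may share signal. G0s2, an inhibitor of the lipase ATGL, had 0.64. Fitm1, a protein of lipid droplet formation, was lower at -0.81. The receptor gene itself, Ppara, was at 0.062, and mouse Creb3l3 at -0.0041, where the mouse probe does not check the human transgene. Over the 10 settings, the median of the PPAR alpha list stayed between 0.040 and 0.19, and that of the second peroxisomal list between -0.11 and 0.039.

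**Figure D5:**
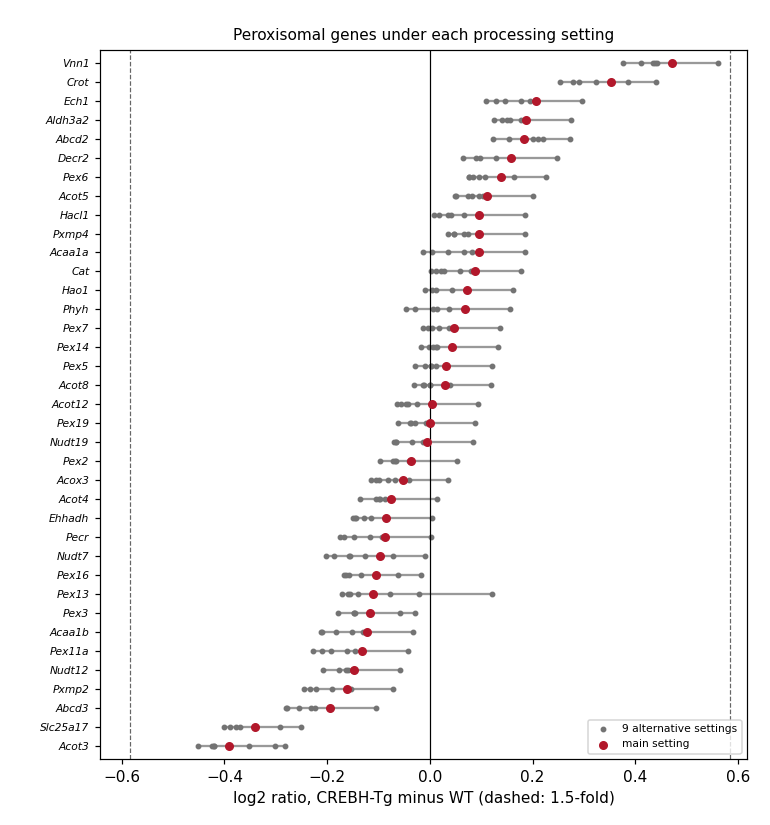
Log2 ratio (CREBH-Tg minus WT) of each measured member under the main setting, in red, and under 9 alternative settings, in grey (8 for Abcd2), with dashed lines at 1.5-fold. No point passes 1.5-fold. A total of 11 members lie above 0 in every setting run, 10 lie below 0, and 16 lie on both sides. For a member with 1 probe, averaging over probes and the 2 other filters repeat the main value.

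Both arrays came from 1 slide and 1 scan, with 58.34% of spots well above background in CREBH-Tg and 55.41% in WT, and array and genotype cannot be told apart. Hepatocyte markers were all measured and bright, with 14 of 14 in the brightest class, none 1.5-fold apart and a median log2 ratio of 0.062. Kupffer cell and macrophage markers had a median of -0.041 (11 of 12 measured, with Marco lower at -0.95), endothelial markers 0.074 (10 of 10) and bile duct markers -0.17 (7 of 8). Stellate cell markers had a median of 0.21 (10 of 10, with Lum higher at 0.72) and lymphocyte markers 0.21 (8 of 10, with the dim Cd3d higher at 1.1). Adipocyte markers had a median of 0.38 (5 of 7) and were far apart, all 3 past 1.5-fold being dim, with Adipoq at 2.21, Retn at 1.55 and Cidea at -1.88. The marker genes named here are those of these lists that were past 1.5-fold. Kidney tubule markers had -0.048. The summed scaled signal of hepatocyte markers was 10122 in CREBH-Tg and 9511 in WT.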

How the data were processed

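Liver RNA pools of CREBH-Tg and WT mice were hybridised as Cy3 cRNA, per the labels. Per the file headers, Agilent Feature Extraction 10.10.1.1 produced the spot values, with mm9 as the array's annotation build. The deposited processed signal is a linear intensity, background-subtracted and detrended within each array; the authors' value table is the same intensity times 2.59 for WT and 2.68 for CREBH-Tg.

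Here log2 signals were taken relative to each array's 75th percentile. Control spots and 300 outlier spots were left out and spots of a probe averaged. A probe counted as detected with more than 50% of its spots well above background, and the brightest probe detected on both arrays stood for a gene. Transcript accessions were matched without versions to RefSeq names of GRCm38.p6, naming 27233 of 55681 probes. All 38 members were named. No test was run: each genotype has 1 array, whose number limits precision. The fold thresholds were 1.5 and, as alternatives, 1.3, 2 and 3.

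The members and lists were chosen with earlier results of these data known. All members are named, and of the second peroxisomal list and the PPAR alpha targets those past 1.5-fold, at most 8; marker genes were named after their values were seen. The steps were tested on simulated data. Alternatives were 4 other scalings, the authors' table, normexp (offset 50, on the median spot signal), the mean over probes and 2 filters. Protein targeting signals were planned and not analysed here. Tools were R 4.3.3 with limma 3.58.1, and Python 3.11.15 with statsmodels 0.14.6, pandas 2.3.3, numpy 2.4.6 and matplotlib 3.10.9.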

Additional observations from a re-analysis of the deposited data

How the results depend on the processing

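The count of members 1.5-fold or 2-fold apart was 0 in each direction under the main setting and every alternative scaling, the authors' table, normexp, the mean over probes and the stricter filter. With no filter on dim probes 1 member, Hao2, was past 1.5-fold and past 2-fold lower. A 1.3-fold threshold gave 1 higher and 1 lower, and 3-fold gave 0. The median log2 ratio of the members lay between -0.057 and 0.093. Against the 9 higher and 10 lower beyond spot noise, median scaling gave 17 and 3, as it adds the same amount to every gene. Quantile normalization and loess each gave 4 higher and 13 lower, 5 were higher and 15 lower by the authors' table, and the software's error, added after the data were seen, 1 higher and 0 lower. The median of the brightest class also moved, from 0.051 in the main setting to 0.14 with median scaling. It was -0.00049 with quantile normalization, -0.002 with loess and -0.0096 in the authors' table. Shares of all genes beyond spot noise under these scalings are not given here. Acaa1a turned to -0.013 under quantile normalization and Pex13 to 0.12 with the mean over probes. Dim genes (Hao2, Abcd2) are limited by signal over background. No paired analysis was possible because each genotype has 1 sample.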

Other observations

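The thioesterase genes of chromosome 12 lie side by side in the order Acot2, Acot1, Acot4, Acot3, Acot5 and Acot6. Of them, Acot1 and Acot3 alone were beyond spot noise in the main setting. Both lie in the brightest class, where 36.1% of genes were higher and 15.5% lower by this measure. Acot1, the cytosolic long-chain thioesterase and a known PPAR alpha target, had a scaled signal of 19.0 in CREBH-Tg and 16.7 in WT liver (log2 ratio 0.19), beyond the spot noise of 0.0945. Its neighbour Acot2, the mitochondrial enzyme, was dim, with 0.243 in CREBH-Tg and 0.235 in WT (0.048). Acot3 was lower in CREBH-Tg at -0.39, Acot4 at -0.075 and Acot5 at 0.11 were inside spot noise, and Acot6 was dim at -0.39, with either sign over the processing settings (-0.45 to 0.095). Acot1, Acot2 and Acot6 were chosen after their values were seen. The genes are similar in sequence, and cross-hybridisation between their probes was not tested.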
